A study of Camellia sinensis with 9 samples.

Results

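Of the 179951 unigenes with an expression value in ‘Anji Baicha’ leaves, 7 were assigned by the study to 3 enzymes of plastid isoprenoid supply and are described here. Unigene16957, unigene10858 and unigene3240 were assigned to deoxyxylulose phosphate synthase (DXS), unigene90269 to deoxyxylulose phosphate reductoisomerase (DXR), and unigene41970, unigene10069 and unigene2557 to geranylgeranyl diphosphate synthase (GGPS). They were found by their numbers in the deposited values, and the assignment to an enzyme was the study's annotation. The study had picked these 7, and DXR unigene11606, as differentially expressed on the same libraries, from the 14 unigenes that it listed for DXS, DXR and GGPS. A difference among stages was therefore part of how they were chosen, and their values are a description with no test.

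‘Anji Baicha’ is a tea cultivar (Camellia sinensis) whose spring shoots come out pale in the cold and green later. Leaves of 4-year-old plants were sampled at the yellow-green (YG) stage, the albescent or white (W) stage and the re-greening (G) stage, with 3 libraries per stage and 9 in all, from 1 cultivar with no green cultivar beside it. The YG leaves were the first of the shoot, the W leaves came later from the second or the third position, and the G leaves from the fifth or the sixth position in warmer weather. Stage, leaf position, date and temperature cannot be told apart in this design, and in whole leaves fewer cells of a type cannot be told apart from less RNA per cell.

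Expression was measured by RNA sequencing as FPKM (fragments scaled to the length of the transcript and to the mapped fragments of the library), so that levels of different unigenes can be set side by side. The deposited values held 1 FPKM per unigene and stage, with the libraries of a stage already combined. No difference below has a replicate check, and the number of fragments behind a value is unknown. The FPKM values of a stage summed to 382235 in YG leaves, 349550 in W leaves and 370564 in G leaves. Of the 70 unigenes of the study's chlorophyll list, which mark green tissue, 75.7% had at least 1 FPKM in YG leaves, 82.9% in W leaves and 75.7% in G leaves, beside 28.8%, 29.6% and 28.1% of all unigenes. The unigenes were assembled from these same libraries, and the counts do not tell the stages apart.

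Plastids make the building blocks of carotenoids and of the chlorophyll phytol tail by the methylerythritol phosphate pathway. DXS joins pyruvate and glyceraldehyde phosphate in its entry step, and DXR rearranges and reduces the product to methylerythritol phosphate. The enzymes ispD, ispE and ispF act further along, and IPI interconverts the isomers of the end product. GGPS then condenses these units into geranylgeranyl diphosphate, which phytoene synthase (PSY) takes into carotenoids and geranylgeranyl reductase (CHLP) and chlorophyll synthase (CHLG) use for chlorophyll. DXS is known in several plants as a step with strong influence on the flow through the pathway. In Arabidopsis, GGPS enzymes form a family whose members work in plastids and in other compartments. The compartment of the tea unigenes is not annotated in the sources used here.

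Primer pairs were designed by the study for 3 of the 7, the leading DXS unigene and the leading pair of GGPS unigenes. They are shown because they tie these unigene numbers to a transcript sequence, and all letters are in lower case since no part is singled out.
unigene3240 (DXS), sense: ccaatcatcatcgtttgaacttcc
unigene3240 (DXS), antisense: ctattcctttcctcaccagccact
unigene41970 (GGPS), sense: tagaaccatcgacaaagccatttc
unigene41970 (GGPS), antisense: catcatactcattccactccccaa
unigene10069 (GGPS), sense: tgagcaatgtaattggtcagagcc
unigene10069 (GGPS), antisense: gcagacaagttgaaggtggaagc
None of the 6 was also a primer of another unigene in the study's primer list. No identifier matched the RefSeq gene table (0 of 179951), so no chromosome, exon or strand is given for any unigene.

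DXS, the entry enzyme, was represented by 7 unigenes, and the 3 described here held 95.9% of their summed FPKM in YG leaves, 94.4% in W leaves and 97.3% in G leaves. Unigene3240 was the most abundant, with 12.2 FPKM in YG, 16.0 FPKM in W and 18.0 FPKM in G. It was lowest in YG and highest in G (in W after quantile normalization), and its highest value was 1.47 times its lowest. Unigene16957 had 8.07 FPKM in YG, 8.15 FPKM in W and 5.09 FPKM in G. YG and W were close together, with YG the higher under upper-quartile scaling, and G was lower. Unigene10858 had 1.67 FPKM in YG, 4.22 FPKM in W and 2.11 FPKM in G. It peaked in W, at 2.52 times its YG value, and was the only one of the 7 whose plain FPKM ratio between any stages exceeded 2. As deposited, the 3 DXS unigenes thus had different orders of stages, but after quantile normalization unigene3240 and unigene10858 had the same order.

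The other 4 DXS unigenes were low. Unigene17113 had 0.371, 0.82 and 0.378 FPKM in YG, W and G, unigene66122 had 0.285, 0.619 and 0.116 FPKM, unigene69561 had 0.224, 0.0576 and 0.145 FPKM, and unigene18461 had 0.0603, 0.197 and 0.0567 FPKM. None of them reached 1 FPKM in any stage, and 3 of the 4 had their highest value in W. Among all unigenes, a value above 0 was also most frequent in W, with 83.4% beside 79.4% in YG and 78.3% in G. The share of all unigenes with their highest value in W was not counted. Whether unigenes of 1 enzyme are separate genes, alleles or pieces of 1 transcript is not stated, nor is how reads shared between similar unigenes were counted.

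DXR was represented by 2 unigenes. Unigene90269 had 4.35 FPKM in YG, 6.31 FPKM in W and 6.38 FPKM in G. The W and G values were nearly equal, in an order that depended on scaling, and both lay above YG, with the highest 1.47 times the lowest. The second DXR unigene, unigene11606, had 0.926 FPKM in YG, 1.69 FPKM in W and 2.00 FPKM in G. Both DXR unigenes were thus lowest in YG, as were DXS unigene3240 and unigene10858. Unigene90269 held 82.4% of the DXR sum in YG, 78.9% in W and 76.1% in G.

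GGPS, the last shared step before carotenoids and chlorophyll, was represented by 5 unigenes, and the 3 described here held 97.7% of their sum in YG, 99.1% in W and 98.1% in G. Unigene41970 had 58.7 FPKM in YG, 39.3 FPKM in W and 34.8 FPKM in G, the highest level among the 7 in every stage. It was the only one of the 7 with its highest value in YG, although unigene16957 joined it under upper-quartile scaling. Unigene10069 had 13.7 FPKM in YG, 22.5 FPKM in W and 23.8 FPKM in G, with W the higher of the last pair under TPM-like scaling (to an equal sum) and quantile normalization. The leading GGPS unigenes thus ran in opposite directions, unigene41970 at 1.69 times its lowest value in YG and unigene10069 at 1.73 times its lowest value in G.

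Unigene2557, the third GGPS unigene, had 0.364 FPKM in YG, 0.403 FPKM in W and 0.262 FPKM in G. These values stayed below 1 FPKM in every stage and held at most 0.64% of the GGPS sum. The remaining GGPS unigenes were low as well. Unigene15643 had 0.632 FPKM in YG, 0.541 FPKM in W and 1.14 FPKM in G. Unigene171201 had 1.06 FPKM in YG and was listed at 0 in W and G, so no fold is given for it. Of the 5001 unigenes with numbers nearest to unigene171201, 26.3% had a value only in YG, against 3.71% of all unigenes, and the part of this in its own pattern was not tested.

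**Figure D1:**
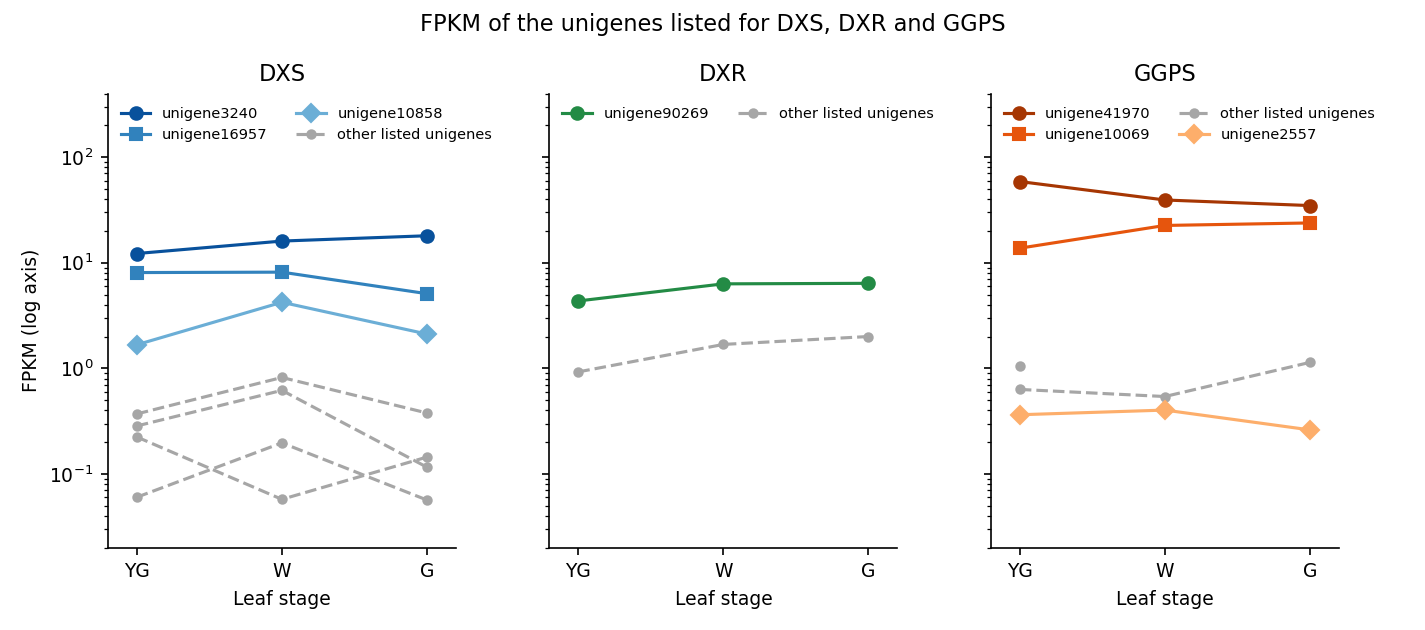
FPKM (log axis) of the unigenes listed for DXS, DXR and GGPS in YG, W and G leaves, 1 value per stage with no error bars since the libraries were combined; coloured lines are the 7 unigenes described and grey lines the others, and the values listed at 0 for unigene171201 are not drawn. Unigene41970 goes down over the stages (58.7, 39.3 and 34.8 FPKM) while unigene10069 goes up (13.7, 22.5 and 23.8 FPKM).

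To place these levels among all unigenes, the 78868 unigenes that reached 1 FPKM in any stage were ranked in each stage. Of the 7, 6 were among these 78868 and unigene2557 was not. Unigene41970 lay above 99.4% of them in YG leaves, 99.1% in W leaves and 98.7% in G leaves. Unigene10858 moved most, lying above 60.3% in YG leaves, 84.5% in W leaves and 67.2% in G leaves. Unigene3240 and unigene10069 stayed above at least 95.4% in every stage. Unigene16957 lay above 92.5%, 92.6% and 86.1% in YG, W and G, and unigene90269 above 85.1%, 90.1% and 89.1%.

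Changes between stages were then taken as differences of log2(FPKM + 1), a scale that understates the change of low unigenes, with at least 2-fold meaning a difference of at least 1 in size. In W against YG leaves, none of the 6 counted unigenes was 2-fold apart, while 20.5% of all counted unigenes were (11.4% at least 2-fold higher in W). The differences were 0.97 for unigene10858, 0.68 for unigene10069, 0.45 for unigene90269, 0.37 for unigene3240, 0.01 for unigene16957 and -0.57 for unigene41970. Of these 6, 5 were thus positive, beside 50.1% of all counted unigenes, and unigene41970 was lower in W. Unigene16957 turned slightly negative under upper-quartile scaling (-0.0048). Unigene10858 lay just inside the 2-fold limit. On a scale with a pseudocount of 0.1 it passed the limit with 1.29, but so did more of the background, 36.2%.

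In G against W leaves, again 0 of the 6 were 2-fold apart, beside 22.1% of all counted unigenes (10.2% at least 2-fold higher in G). The 2 lower DXS unigenes had the largest differences, -0.75 for unigene10858 and -0.59 for unigene16957. The others lay close to 0, at 0.16 for unigene3240, 0.08 for unigene10069, 0.01 for unigene90269 and -0.17 for unigene41970. So 3 were higher and 3 lower. The 3 positive differences turned negative under at least 1 other scaling of the stages, down to -0.12 for unigene90269, -0.08 for unigene10069 and -0.01 for unigene3240.

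In G against YG leaves, 0 of the 6 were 2-fold apart, while 29.3% of all counted unigenes were (15.1% at least 2-fold higher in G). Unigene10069 had 0.75, unigene3240 had 0.52, unigene90269 had 0.47 and unigene10858 had 0.22. Unigene41970 had -0.74 and unigene16957 had -0.57. The GGPS unigenes therefore differed by nearly equal amounts in opposite directions, and all 6 signs stayed the same under every scaling tried. Among the 15174 unigenes with at least 5 FPKM in a stage, the share 2-fold apart was 22.0% in W against YG, 25.1% in G against W and 41.8% in G against YG.

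The median size of the difference over the 6 was 0.51 in W against YG, 0.16 in G against W and 0.55 in G against YG. Over all counted unigenes it was 0.39, 0.43 and 0.57 for the same comparisons. The sizes were thus close, except for a smaller size of the 6 in G against W, but the 2 sets differ in level. Only 15174 of the 78868 counted unigenes reached 5 FPKM in a stage, while of the 6 only unigene10858 did not. Since the scale understates the change of low unigenes, this does not show that the 6 were typical of unigenes at their level. The signed medians of the 6 were 0.41, -0.08 and 0.34, beside 0.00 in each comparison over all counted unigenes.

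**Figure D2:**
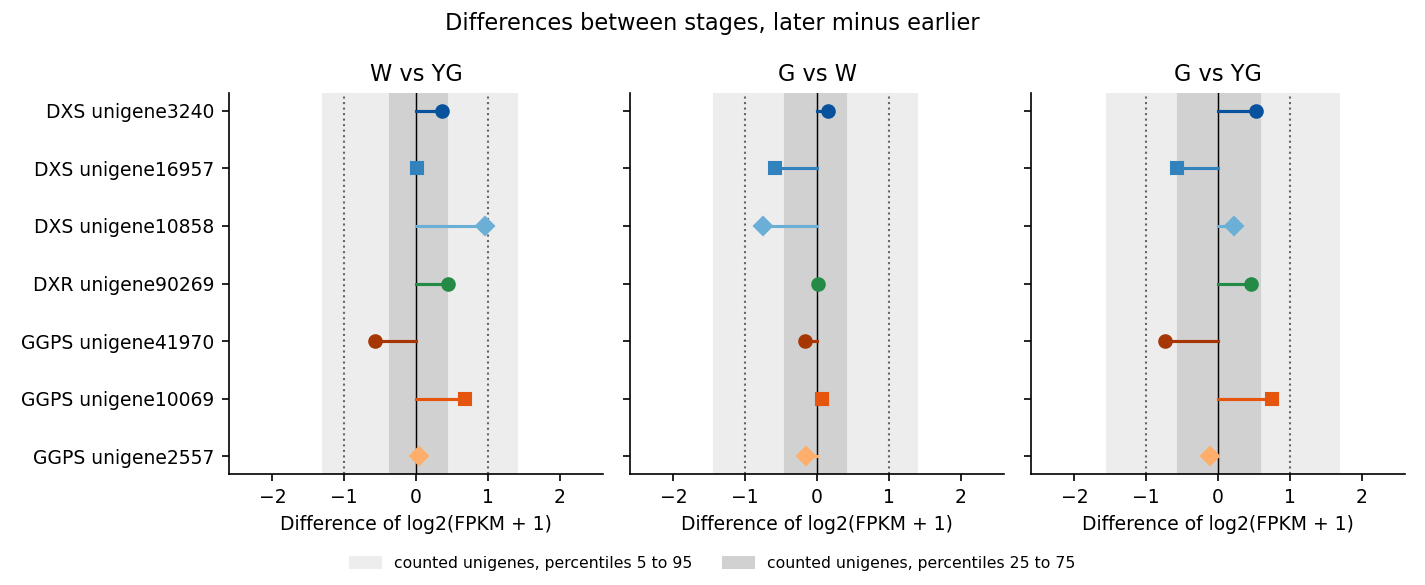
Differences of log2(FPKM + 1) for W against YG, G against W and G against YG, with a point for each of the 7 unigenes, dotted lines at the 2-fold limit, and grey bands for percentiles 5 to 95 and 25 to 75 of the 78868 counted unigenes. All points lie inside the limit, the farthest being unigene10858 at 0.97 in W against YG.

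**Figure D3:**
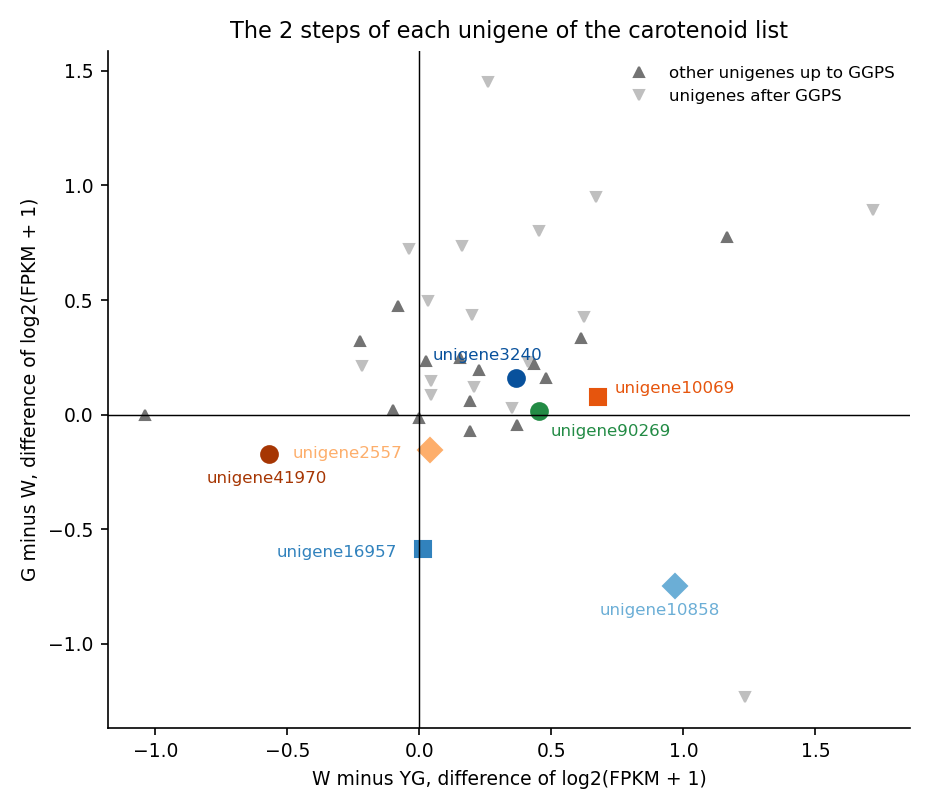
The difference of log2(FPKM + 1) in G against W (y axis) and in W against YG (x axis), with labelled points for the 7 unigenes, dark triangles for the other counted unigenes up to GGPS and light triangles for those after it. Unigene10858 lies at 0.97 and -0.75, unigene41970 at -0.57 and -0.17, and the DXR unigene unigene90269 at 0.45 and 0.01.

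Within a stage, a ratio of FPKM values of unigenes does not move when the whole stage is rescaled. The ratio of unigene41970 to unigene10069 was 4.27 in YG leaves, 1.74 in W leaves and 1.46 in G leaves. Unigene41970 held 78.8% of the GGPS sum in YG leaves, 62.6% in W leaves and 58.0% in G leaves, and unigene10069 held 18.4%, 35.9% and 39.7%. Most of this difference in make-up lay between YG and W. In DXS, the ratio of unigene3240 to unigene16957 was 1.51 in YG leaves, 1.97 in W leaves and 3.54 in G leaves, so that it differed most between W and G.

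The make-up of DXS also differed by stage. Unigene3240 held 53.4% of the DXS sum in YG, 53.3% in W and 69.5% in G. Unigene16957 held 35.2%, 27.1% and 19.7% in the same order, and unigene10858 held 7.31%, 14.0% and 8.16%. The ratio of unigene16957 to unigene10858 was 4.82 in YG leaves, 1.93 in W leaves and 2.41 in G leaves. For DXR, unigene90269 had 4.69 times the FPKM of unigene11606 in YG, 3.74 times in W and 3.19 times in G.

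**Figure D4:**
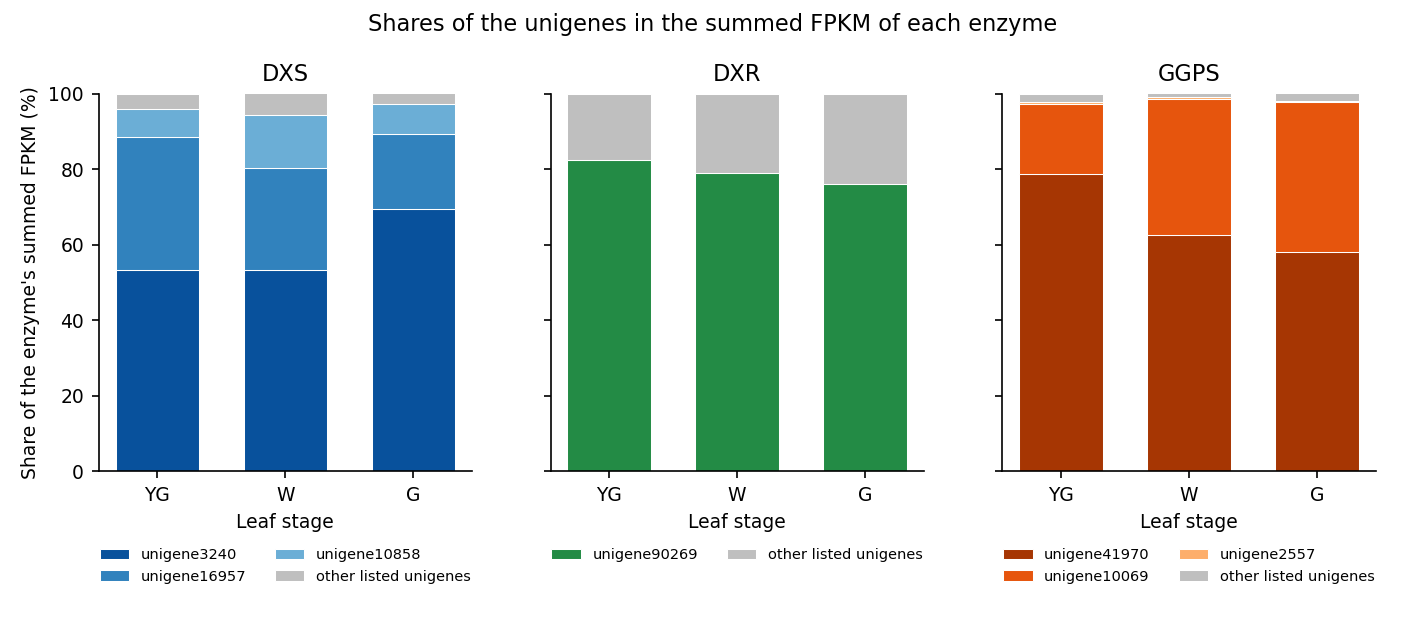
Share (percent) of each unigene in the summed FPKM of its enzyme in YG, W and G leaves, as stacked bars for DXS, DXR and GGPS. Unigene41970 holds 78.8%, 62.6% and 58.0% of GGPS over the stages, and unigene3240 holds 53.4%, 53.3% and 69.5% of DXS.

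Summed over its listed unigenes, DXS had 22.9 FPKM in YG, 30.1 FPKM in W and 25.9 FPKM in G, highest in W. DXR had 5.27, 8.0 and 8.38 FPKM, with its lowest sum in YG. GGPS had 74.5, 62.7 and 60.0 FPKM, highest in YG, and the sum kept this order without unigene171201. The opposite courses of unigene41970 and unigene10069 left the GGPS sum with a log2 ratio of -0.25 in W against YG, -0.07 in G against W and -0.31 in G against YG. For DXR the same ratios were 0.60, 0.07 and 0.67, of which the G against W value turned to between -0.054 and -0.0052 under the 3 other scalings. For DXS they were 0.39, -0.22 and 0.18.

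The ratio of the DXS sum to the DXR sum was 4.34 in YG leaves, 3.76 in W leaves and 3.09 in G leaves. The ratio of the GGPS sum to the DXS sum was 3.25 in YG leaves, 2.08 in W leaves and 2.32 in G leaves. GGPS had the highest sum of the 3 enzymes and DXR the lowest in every stage.

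Between DXR and GGPS, the study listed unigenes for ispD, ispE, ispF and IPI, which act on the way to the precursor units. The most abundant unigene of ispD, a transferase of cytidine groups, was unigene6307 with 2.75, 3.28 and 3.46 FPKM in YG, W and G. That of ispE, a kinase, was unigene133370 with 4.85, 4.0 and 5.26 FPKM. For ispF, a cyclase, the single unigene28019 had 8.67 FPKM in YG, 20.7 FPKM in W and 36.1 FPKM in G, the largest differences among these enzymes, 1.17 in W against YG and 1.94 in G against YG. For IPI, unigene91645 led with 8.06, 11.2 and 13.2 FPKM. The ratio of the DXS sum to ispF was 2.64 in YG leaves, 1.46 in W leaves and 0.718 in G leaves, so that the order of the 2 steps turned over between W and G.

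Of the 26 unigenes listed for the steps up to GGPS, 21 had at least 1 FPKM in a stage. In W against YG, 2 of these 21 were 2-fold apart, beside 20.5% of all counted unigenes, with unigene28019 (ispF) higher and unigene171201 lower. In G against W it was 0 of 21, beside 22.1%, and in G against YG the same 2, beside 29.3%. Unigene171201 was counted only through its YG value and was listed at 0 in W and G, so its place here was fixed by the count's own minimum. The median differences of the 21 were 0.19, 0.08 and 0.33. Of the 23 unigenes listed after GGPS, for carotenoid formation itself, 16 were counted. In W against YG, 2 of the 16 were at least 2-fold higher, beside 11.4% of all counted unigenes, and none lower. In G against W 1 was higher, beside 10.2%, and 1 lower. PSY unigene161274, with 0, 1.35 and 0 FPKM in YG, W and G, was 1 of the 2 higher in W and the 1 lower in G. It was counted only through its W value, so both of its calls were fixed by the count's own minimum. In G against YG, 5 were at least 2-fold higher, beside 15.1% of all counted unigenes, and none lower. All 5 reached 5 FPKM in a stage. Among unigenes at that level, 41.8% were 2-fold apart either way, against 29.3% of all counted unigenes. The medians of these 16 were 0.23 in W against YG, 0.43 in G against W and 0.64 in G against YG, beside 0.00 over all unigenes. The lists were not tested against each other.

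The GGPS sum was set beside the enzymes that use its product. The sum for PSY, the entry into carotenoids, was 44.6 FPKM in YG, 49.5 FPKM in W and 107 FPKM in G. The ratio of GGPS to PSY was accordingly 1.67 in YG leaves, 1.27 in W leaves and 0.558 in G leaves, crossing 1 between W and G. CHLP had 69.3, 88.0 and 77.6 FPKM, and CHLG had 14.4, 15.8 and 10.9 FPKM. The ratio of GGPS to CHLP was 1.07, 0.713 and 0.773 over the stages, and that of GGPS to CHLG was 5.16, 3.98 and 5.50. Relative to PSY, GGPS was thus lowest in G, while relative to CHLP and to CHLG it was lowest in W.

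Among the 14 enzymes of the carotenoid list, GGPS was the only one with a lower sum in G than in YG leaves. The other 13 were higher as deposited, although ispE turned slightly lower under upper-quartile scaling (-0.02) and quantile normalization (-0.0014). In W against YG, the sums of 2 enzymes were lower as deposited, GGPS and ispE. In G against W, again 2 were lower as deposited, GGPS and DXS, and the DXR sum turned lower too under the 3 other scalings.

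**Figure D5:**
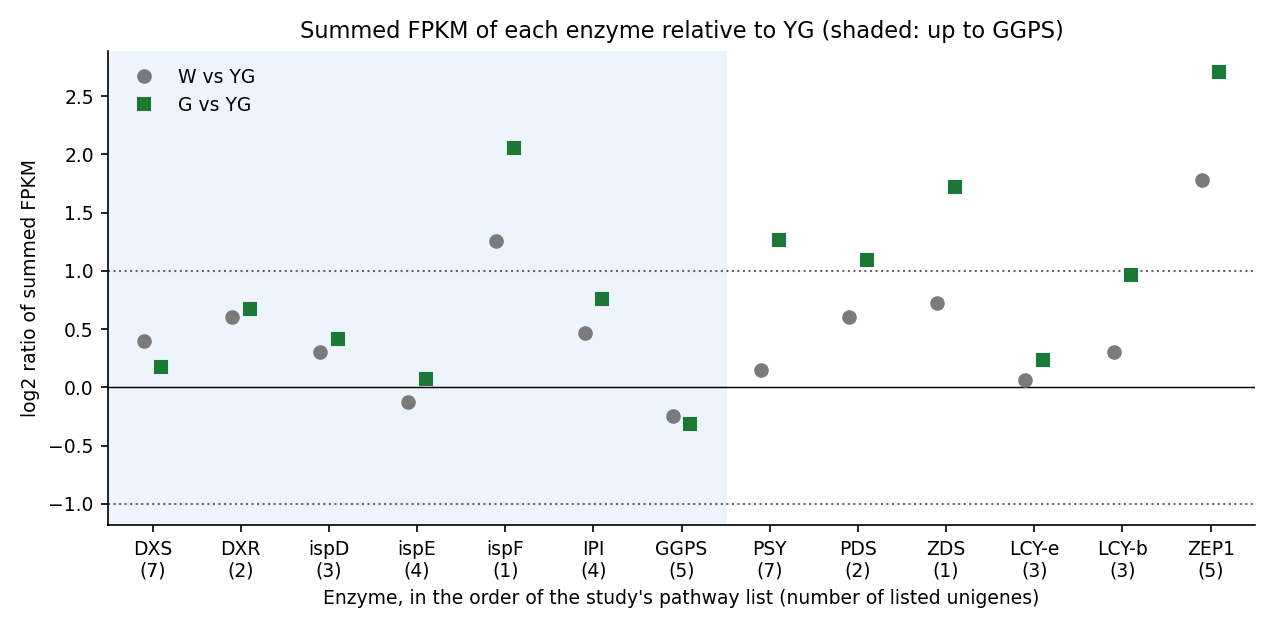
Log2 ratio of the summed FPKM (y axis) of each enzyme in the order of the study's list (x axis, with the number of listed unigenes), with circles for W against YG and squares for G against YG, dotted lines at the 2-fold limit and shading up to GGPS; NXS is left out because none of its unigenes reached 1 FPKM. Both GGPS points lie below 0, at -0.25 and -0.31, while PSY, the next step, lies at 0.15 and 1.27.

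The unigenes of the study's carotenoid, chlorophyll and theanine lists whose pair of steps lay nearest to each of the 7 were found by the Euclidean distance between the log2 steps, over 3 stages and among 126 candidates (127 for unigene2557). Other unigenes lay nearer still, from 0.0317% of all counted unigenes (for unigene10069) to 1.90% (for unigene41970) nearer than the first listed one, so the likeness is not particular to those named. Nearest to DXS unigene3240 were unigene98934 (ZEP1, zeaxanthin epoxidase, distance 0.085) and unigene91645 (IPI, 0.0907). Unigene98934 was low, with 0.310, 0.740 and 1.04 FPKM in YG, W and G, and was counted only through its G value. Its plain ratio of G to YG was 3.36, beside 1.47 for unigene3240. With a pseudocount of 0.1 it was no longer in the nearest pair. Unigene16957 had unigene24743 (CHLD, a magnesium chelatase subunit, 0.108) and unigene90629 (HEME, uroporphyrinogen decarboxylase, 0.117) nearest, both in chlorophyll formation. Unigene10858 had unigene131775 (CHLG, 0.200) and unigene158228 (GS, glutamine synthetase, 0.301), which was listed at 0 in YG and G.

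DXR unigene90269 lay nearest to unigene36987 (ispD, 0.10) and unigene17506 (LCY-e, a lycopene cyclase, 0.102). For GGPS, unigene41970 lay nearest to unigene7036 (GOGAT, glutamate synthase, 0.162), which had 6.68, 4.58 and 3.56 FPKM in YG, W and G, and to unigene55992 (CHLD, 0.314), the last with 7.34% of all counted unigenes nearer. Unigene10069 lay nearest to a pair listed for chlorophyll breakdown. These were unigene11687 (CLH, chlorophyllase, 0.0341) with 2.59, 4.85 and 5.08 FPKM, and unigene5416 (PPH, pheophytinase, 0.0992) with 10.3, 18.4 and 19.7 FPKM. For unigene2557 the nearest were unigene32163 (HCAR, 0.110) and unigene39145 (HEME, 0.121). With a pseudocount of 0.1, the nearest unigene stayed the same for 2 of the 7 and the nearest pair for 4.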

How the data were processed

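RNA from YG, W and G leaves was sequenced in 9 libraries, 3 per stage, which by the study's methods came from separate plants. The authors removed low-quality reads, assembled unigenes de novo and deposited FPKM, 1 value per unigene and stage. Cufflinks is named as version 1.0.3 in the study's methods and 2.1.1 in the submitters' processing notes. The aligner and the way libraries were combined are not given in the sources used here.

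The 3 value columns were joined by unigene, and groups were taken from the labels. Tests on libraries had been planned. With 1 value per stage no test was run and no p-value is given. A search of 6742 low unigenes for repeated steps gave no relative depth (the fullest bin of 0.05 on the log2 scale held 3.26%), so the precision of a value is unknown. An exact 0 can be a failed estimate. Differences were taken as later minus earlier log2(FPKM + 1), and unigenes that reached 1 FPKM in any stage were counted.

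The unigenes named were the 7, the others listed for DXS, DXR and GGPS, those of ispD, ispE, ispF and IPI past 2-fold or highest in mean, and the 2 nearest in pattern to each of the 7. IDs were given enzyme names only from the study's lists. The members and lists were chosen with earlier results of these data known.

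Alternatives were a pseudocount of 0.1, scaling to an equal, higher sum in each stage (TPM-like), which makes the pseudocount smaller beside the values, upper-quartile scaling at percentile 75, quantile normalization and no filter. A plain ratio, a minimum of FPKM 5 and the GGPS sum without unigene171201 were chosen after seeing the data. On simulated data, all 200 unigenes changed 4-fold were recovered with 0 calls among 78668 others, which checks the counting only. Python 3.11.15, pandas 2.3.3, numpy 2.4.6 and matplotlib 3.10.9 were used.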

Additional observations from a re-analysis of the deposited data

How the results depend on the processing

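No paired analysis was possible because the deposited values hold 1 combined value per stage, and for the same reason no library could be left out. Of 105 values of the 7 unigenes under alternatives, 98 kept their sign. A value with another pseudocount or none could not change sign, so only values under the 3 scalings could. The 7 that changed sign all came from these scalings. They belonged to 4 of 21 changes, none above 0.16 in size as deposited: unigene16957 in W against YG and unigene3240, unigene90269 and unigene10069 in G against W. Of 85 summary values, 74 were taken to have kept their direction and side. This allowed small moves of a count, such as G highest for 2 in place of 3 with upper-quartile scaling. A median that went to 0 was also taken as kept. This was the median of the unigenes up to GGPS in G against W, 0.08 as deposited and 0 with TPM-like scaling. Some of the 74 could not change, such as the GGPS sum in G against W without unigene171201, which was listed at 0 in both stages. Of the 6 counted unigenes, 1 in place of 0 was at least 2-fold apart in W against YG with a pseudocount of 0.1 and with TPM-like scaling. This was unigene10858, whose plain ratio also passed 2-fold (2.52). Over all counted unigenes the share was 36.2% with that pseudocount and 30.5% with TPM-like scaling, in place of 20.5%. The stage of the highest value depended on scaling. The share of all unigenes with their highest value in each stage was not counted, so the counts given here have no background. As deposited it was YG for 1, W for 3 and G for 3. It was W for 5 and G for 1 with TPM-like scaling, YG for 2 with upper-quartile scaling, and W for 6 and G for 0 with quantile normalization. The DXR sum in G against W had a log2 ratio of 0.07 as deposited, -0.016 with TPM-like scaling, -0.0052 with upper-quartile scaling and -0.054 with quantile normalization. The nearest unigene was the same for 2 of the 7 with a pseudocount of 0.1. Over all unigenes, the numbers 2-fold apart were 28557, 30939 and 37728 in W against YG, G against W and G against YG with that pseudocount, in place of 16152, 17399 and 23100. TPM-like scaling moved the median of all unigenes by 0.11 in W against YG.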

Other observations

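Unlike directions within 1 enzyme were found outside DXS and GGPS too. Of the 42 enzymes in the study's carotenoid, chlorophyll and theanine lists, 32 had at least 2 unigenes that reached 1 FPKM in a stage. In 14 of these 32, at least 1 unigene was higher and at least 1 lower in G than in YG leaves. The share of the leading unigene in the enzyme's sum was lower in G by over 20 percentage points for 2 enzymes, AIDA (listed for theanine formation) with a difference of -21.1 points and GGPS with -20.8 points. For HEMA, glutamyl-tRNA reductase at the entry of chlorophyll formation, it was -19.5 points. For DXS the leading unigene3240 differed by 16.1 points in the other direction, and for DXR unigene90269 differed by -6.32 points. The leading share was higher in G by over 20 points for CLH, PORA and HEMD of the chlorophyll list. The same held for GOGAT, GS and TS of the theanine list. The largest of these differences was 67.1 points, for CLH, and each was larger in size than that of GGPS. The leading unigene was the one highest in mean FPKM over the 3 stages, so the choice used the YG and G values themselves. For CLH it was unigene131928, with 0.0836% of the sum in YG and 67.2% in G. For PORA it was unigene8789, with 17.2% and 68.2%. Differences in the leading share were thus partly fixed by the choice, and their sizes do not rank the enzymes. NXS, with no unigene at 1 FPKM, is left out here. These values describe the 3 combined stages and were not tested.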
